A study of Bos taurus with 12 samples.

Results

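Solute carriers are the membrane proteins that move amino acids, sugars, ions, metals, nucleosides, lipids and vitamins across the plasma membrane and the membranes of organelles. Their genes carry the symbol SLC, a family number and a member letter and number. The genes described here are those of the array with such a symbol, without the glucose carriers of family SLC2 and the mitochondrial carriers of family SLC25. They number 131 of the 9155 genes that the array's annotation names, and lie on 185 of 24016 probe sets. For each of the 36 genes with more than 1 probe set, the probe set of highest mean over all arrays was used. Both SLC4A1AP and SLC7A6OS carry a symbol of this form without being carriers, the first being an adaptor protein and the second a gene opposite SLC7A6. They are counted among the 131 and placed in no substrate group.

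Embryos were made in vitro from Japanese Black cattle, and there were 4 groups of 3 arrays each, every array from its own pool of embryos. Prepubertal blastocysts and adult blastocysts were expanded, had not hatched and were pooled by 10 on day 7. Prepubertal 8-16-cell embryos and adult 8-16-cell embryos were pooled by 50 on day 3, at 70 to 72 h after insemination. Prepubertal oocytes came from heifers aged 9 to 12 months and adult oocytes from abattoir ovaries of cows. All groups shared thawed frozen semen, maturation in a medium with serum, and culture at low oxygen in a medium with amino acids, given first with albumin and later with serum. All embryos were selected for normal morphology. The sources do not state whether any of these pools had animals, semen or a culture day in common, and p-values measure only the spread between them, which may be technical.

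The preimplantation embryo takes its nutrients from the fluid around it through such carriers. Early cleavage relies mainly on pyruvate and lactate, while the blastocyst also uses glucose and amino acids. The outer layer of the blastocyst, the trophectoderm, pumps sodium, and water follows to fill the cavity. In cattle the embryonic genome becomes active around the 8-16-cell stage, so RNA of that stage holds both stored maternal transcripts and new ones. In these pools, fewer cells with a transcript and less of it per cell cannot be told apart.

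Values are array signals scaled to the same trimmed mean on each array, so a level is relative to the array's other RNA. The background of an array was its brightest signal among the 27 Bacillus subtilis control probe sets. It was 171.6 to 254.1 in prepubertal blastocysts, 187.4 to 281.6 in adult blastocysts, 356.2 to 1664.2 in prepubertal 8-16-cell embryos and 121.8 to 250.6 in adult 8-16-cell embryos. Prepubertal 8-16-cell replicate 3 stood apart, with the background of 1664.2 and 49.3% of its signal in 100 probe sets, where the other arrays had 23.3% to 32.7%. The 5 blastocyst markers were KRT18, KRT8, LGALS3, IFNT2 and S100A14. They were listed with earlier results of these data known, so they are no independent check of the stage label. Their signals summed to 117233 to 158082 in prepubertal and 83582 to 144289 in adult blastocysts. In prepubertal and adult 8-16-cell embryos the sums were 310 to 1109 and 177 to 711. LGALS3 alone had 45785 to 119277 in blastocysts, while IFNT2 had 17 on prepubertal blastocyst replicate 3. Each of the 5 was called higher in blastocysts in the comparison over both donor groups described below. Of 5 oocyte and cleavage-stage markers 3 were called lower there, and NLRP5 and ZP3 were not called.

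Few carriers gave a signal above background throughout. SLC1A5 alone exceeded it on all 12 arrays, 27 carriers (20.6%) exceeded it on none, and 103 on some. Of all genes, likewise with 1 probe set each, 4.42% exceeded background on all arrays and 15.3% on none, a difference that was not tested. Of the 131 genes, 49, 42 and 41 were above background in prepubertal blastocysts and 46, 45 and 34 in adult blastocysts, against 22, 30 and 4 in prepubertal 8-16-cell embryos and 28, 25 and 28 in adult 8-16-cell embryos. Every blastocyst array thus had more carriers above background than any 8-16-cell array. Over all genes the adult stages did overlap, with 3329 to 3761 of 9155 above background in adult blastocysts and 2917 to 3617 in adult 8-16-cell embryos. The prepubertal stages did not overlap over all genes either, with 4065 to 4518 in blastocysts and 785 to 2838 in 8-16-cell embryos. The part of the arrays' backgrounds in these counts was not tested.

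**Figure D1:**
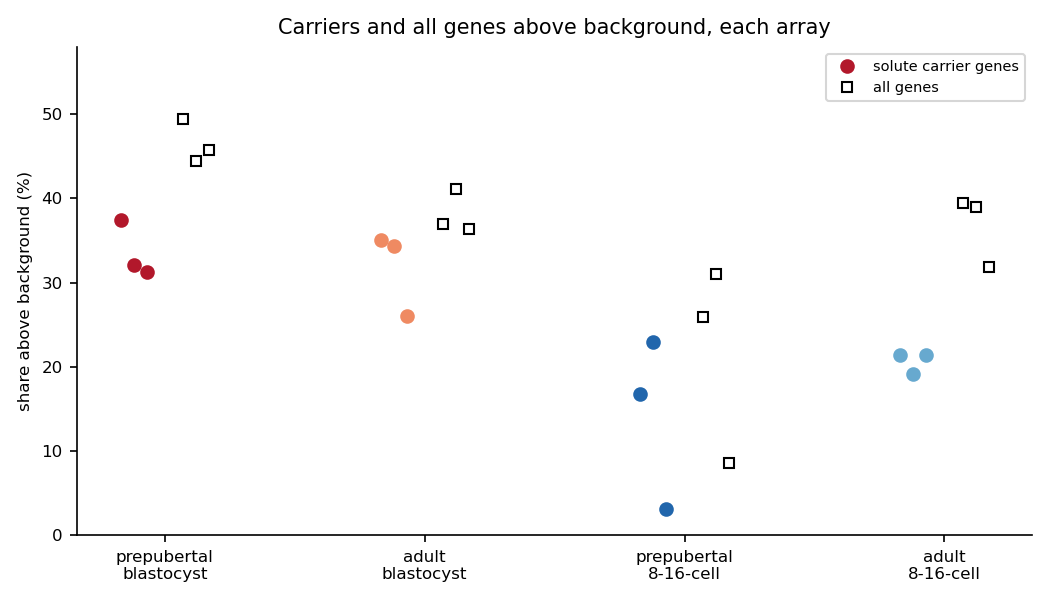
Share of the 131 solute carrier genes (filled circles) and of all 9155 genes (open squares) above the array's background, in percent, for each of the 12 arrays by group. The carriers' share is 26.0% to 37.4% on the 6 blastocyst arrays and 3.1% to 22.9% on the 6 8-16-cell arrays, and the lowest point is prepubertal 8-16-cell replicate 3.

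The first comparison asked which carriers differ between the blastocyst and the 8-16-cell embryo over both donor groups, 6 arrays against 6. limma called 12 of the 131 genes at an adjusted p of 0.05, or 9.16%, with 8 higher and 4 lower in blastocysts. The same call was made for 6.4% of all probe sets and for 9.87% of genes, of which 6.35% were higher and 3.53% lower, so the share of carriers called is near that of genes in general. The median difference (blastocyst minus 8-16-cell, as log2 of signal plus 16 throughout) was 0.01 over the carriers, against -0.04 over all genes and -0.17 over all probe sets. Such fitted differences include signals at background. With genes set to 0 where no array exceeded background, and to their bound where no array of the dimmer stage did, the median was 0.0 over the carriers and 0.0 over all genes, and this is called the bounded median. When every signal was raised to the highest background of the 12 arrays, 3 of the 12 calls were left, namely SLC1A5, SLC38A2 and SLC7A5. By its construction this floor removes differences between signals below 1664.2.

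**Figure D2:**
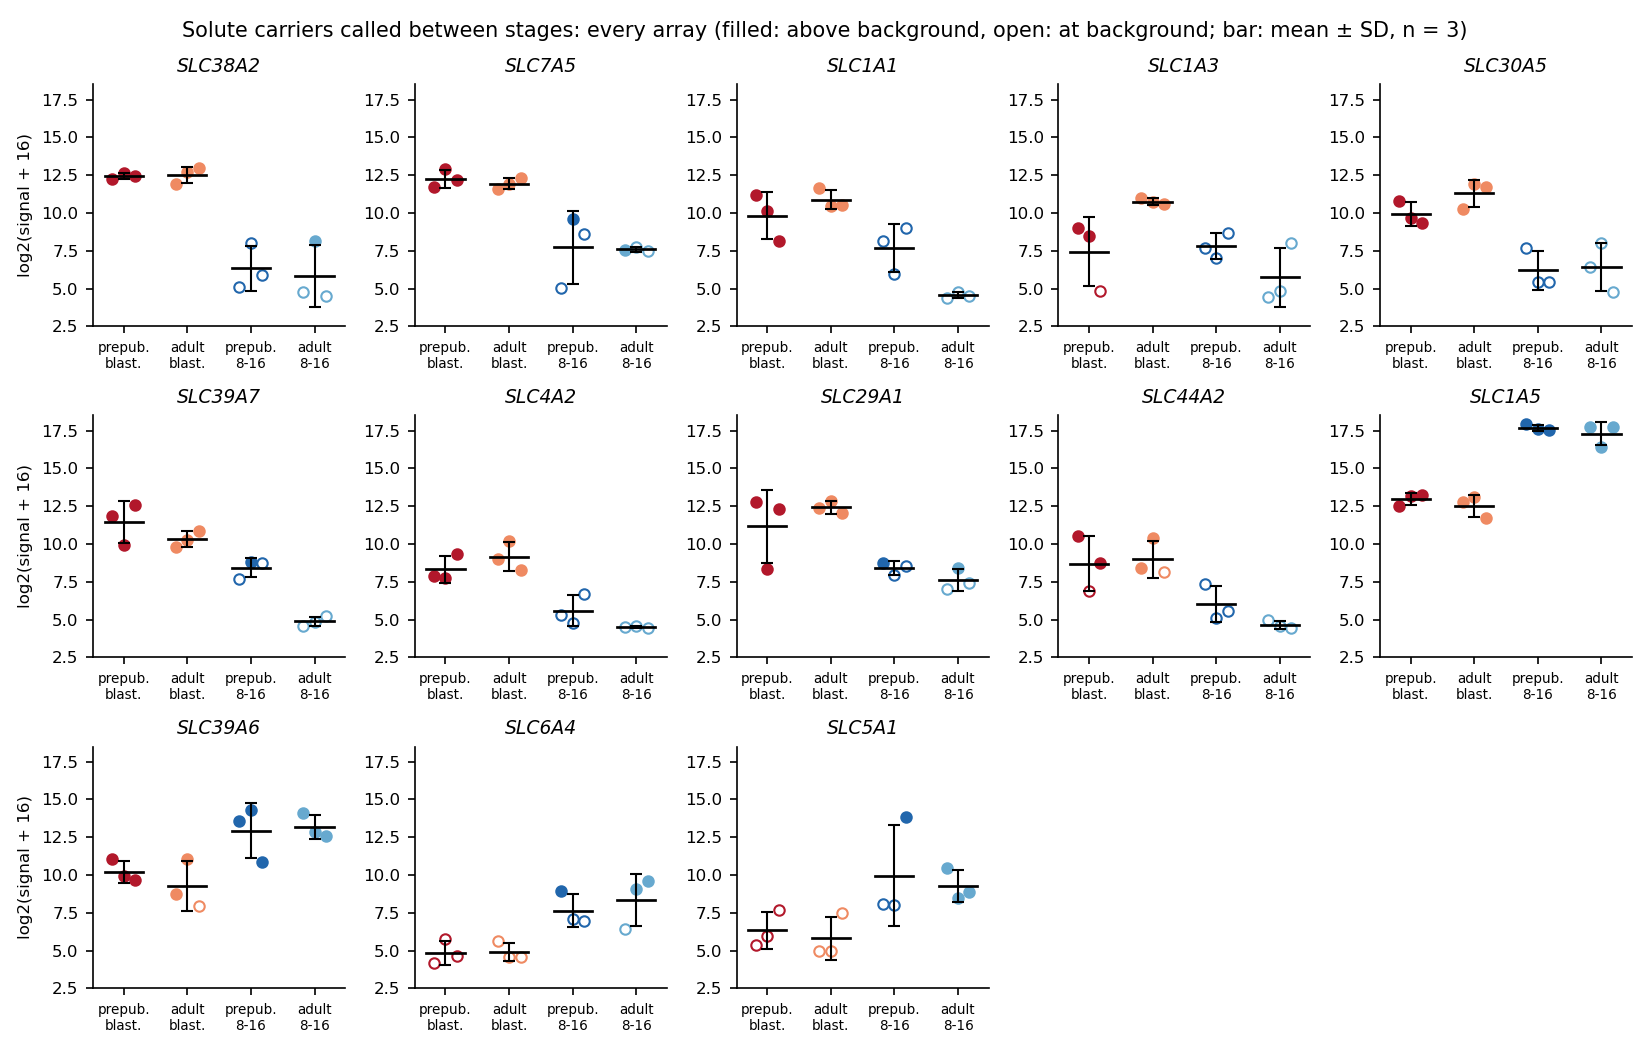
Signal on each array, as log2 of signal plus 16, of the 13 solute carrier genes called in any stage comparison. Filled circles are above the array's background and open circles are not, and the bar and whiskers are the mean ± SD of 3 arrays. SLC1A5 lies at 3345 to 9454 in blastocysts and 86600 to 246949 in 8-16-cell embryos, and SLC38A2 at 3912 to 7951 and 6.92 to 271.

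Among the 32 carriers of amino acids, peptides and neurotransmitters, SLC38A2, SLC7A5 and SLC1A1 rose in blastocysts, SLC1A5 and SLC6A4 fell, and 27 did not pass. The median of the 32 fitted differences was 0.18 and their bounded median 0.0. SLC1A5 exchanges neutral amino acids, glutamine among them, with sodium. Its signals were 5918, 9258 and 9454 in prepubertal blastocysts and 7098, 8788 and 3345 in adult blastocysts, against 246949, 199538 and 189702 in prepubertal 8-16-cell embryos and 218549, 86600 and 217590 in adult 8-16-cell embryos. Every blastocyst array lay far below every 8-16-cell array. SLC1A5 fell by 4.73 on the log2 scale in blastocysts (SE 0.48, adjusted p = 2.28e-15). It passed within adult embryos (-4.75, SE 0.68, adjusted p = 1.99e-07) and within prepubertal embryos (-4.71, SE 0.68, adjusted p = 1.26e-07), and under every alternative tried.

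SLC38A2, a sodium-coupled carrier that brings small neutral amino acids into the cell, moved the other way. Its signals were 4910, 6284 and 5494 in prepubertal blastocysts and 3912, 6731 and 7951 in adult blastocysts. In prepubertal 8-16-cell embryos they were 18.9, 240 and 44, and in adult 8-16-cell embryos 10.9, 271 and 6.92. A single 8-16-cell array, adult replicate 2, was above its background. SLC38A2 was higher in blastocysts by 6.41 (SE 1.04, adjusted p = 8.94e-07) and by 6.73 within adult embryos (SE 1.47, adjusted p = 0.00197), values fitted with only that 1 earlier array above background. Within prepubertal embryos, where all 3 earlier arrays were at background, it was at least 8.54-fold higher (adjusted p = 0.00551), and at least 13.7-fold without prepubertal 8-16-cell replicate 3. With every signal raised to the highest background, the difference was 1.77 over both donor groups (adjusted p = 0.00718), 1.72 in prepubertal embryos (adjusted p = 0.113) and 1.83 in adult embryos (adjusted p = 0.106). The second probe set of SLC38A2 was at least 3.02-fold higher in blastocysts (adjusted p = 0.000803), and within adult embryos it did not pass (adjusted p = 0.282).

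SLC7A5 is the light chain of an exchanger of large neutral amino acids such as leucine, and reaches the membrane joined to the heavy chain SLC3A2. The signals of SLC7A5 were 3395, 7516 and 4569 in prepubertal and 2991, 3868 and 4960 in adult blastocysts, against 16.1, 760 and 372 in prepubertal and 174, 202 and 159 in adult 8-16-cell embryos. The stages did not overlap. SLC7A5 was higher by 4.42 in blastocysts (SE 1.01, adjusted p = 0.000995), and within 1 donor group it did not pass (4.52, adjusted p = 0.0641 in prepubertal embryos and 4.32, adjusted p = 0.0897 in adult embryos). SLC3A2 had 7.69 to 426 in blastocysts and 8.5 to 435 in 8-16-cell embryos, and its difference was 0.18 (SE 0.99, adjusted p = 0.963).

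SLC1A1 and SLC1A3 are sodium-coupled carriers of glutamate and aspartate. SLC1A1 had signals of 2339, 1123 and 265 in prepubertal and 3175, 1405 and 1485 in adult blastocysts, against 266, 45.2 and 502 in prepubertal and 5.15, 11.5 and 6.62 in adult 8-16-cell embryos. All 6 blastocyst arrays were above background and all 6 8-16-cell arrays were not, although the prepubertal signals overlapped. SLC1A1 was at least 3.53-fold higher in blastocysts (adjusted p = 0.00263) and at least 8.88-fold higher within adult embryos (adjusted p = 0.00466). Within prepubertal embryos it was at least 1.4-fold higher without passing (adjusted p = 0.555).

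Of the stage and donor comparisons SLC1A3 passed within adult embryos only, at least 8.12-fold higher in blastocysts (adjusted p = 0.0397). Its signals were 505, 341 and 12.1 in prepubertal and 2019, 1645 and 1521 in adult blastocysts, against 190, 113 and 400 in prepubertal and 5.56, 12.6 and 240 in adult 8-16-cell embryos. The prepubertal stages overlapped, with 2 blastocyst arrays and no earlier array above background, and the gene did not pass there (adjusted p = 0.947). The difference between the donor groups' stage effects, prepubertal minus adult, was fitted as -5.36 (SE 2.07) with 8-16-cell signals that were all at background, and did not pass (adjusted p = 0.873). The adult call of SLC1A3 was lost after quantile normalization (adjusted p = 0.0842) and without any one of adult 8-16-cell replicates 1 and 2 and adult blastocyst replicates 1, 2 and 3 (adjusted p = 0.101 to 0.216).

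SLC6A4, the serotonin carrier, was at least 1.11-fold lower in blastocysts (adjusted p = 0.0152). Its signals were 2.48, 37.7 and 8.51 in prepubertal and 33.1, 7.56 and 7.41 in adult blastocysts, all at background, against 474, 117 and 108 in prepubertal and 69.2, 519 and 768 in adult 8-16-cell embryos. Of the 6 8-16-cell arrays 3 were above background, and without any one of these no bound above 1 was left. The call was lost without prepubertal blastocyst replicate 1 (adjusted p = 0.0614) or adult blastocyst replicate 2 (adjusted p = 0.0515).

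The 21 carriers of zinc, iron, copper, magnesium and heme had a fitted median of 0.6 and a bounded median of 0.0, with 9 at background on every array of the dimmer stage and 2 on all 12 arrays. Of the 21, SLC30A5 and SLC39A7 were higher in blastocysts, SLC39A6 was lower and 18 did not pass. Carriers of family SLC30 move zinc out of the cytosol and those of family SLC39 move it in. SLC30A5 loads zinc into the secretory pathway. Its signals were 1782, 796 and 619 in prepubertal and 1217, 3886 and 3328 in adult blastocysts, against 193, 27.2 and 27.9 in prepubertal and 70.8, 243 and 11.9 in adult 8-16-cell embryos. The stages did not overlap, and no 8-16-cell array was above background. SLC30A5 was at least 4.21-fold higher in blastocysts (adjusted p = 0.00217).

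SLC39A7 releases zinc from the endoplasmic reticulum and Golgi. It had 3665, 968 and 6125 in prepubertal and 875, 1212 and 1824 in adult blastocysts, against 192, 436 and 415 in prepubertal and 7.53, 13 and 20.9 in adult 8-16-cell embryos. The stages did not overlap, and prepubertal 8-16-cell replicate 2 was the one earlier array above background. The difference was 4.23 (SE 1.04, adjusted p = 0.00264). Within adult embryos SLC39A7 was at least 5.92-fold higher (adjusted p = 0.0212), a call lost without any one of the 6 adult arrays (adjusted p = 0.0547 to 0.105).

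SLC39A6 brings zinc in through the plasma membrane, and fell by 3.30 in blastocysts (SE 0.89, adjusted p = 0.00795). Its signals were 2106, 947 and 813 in prepubertal and 417, 2158 and 233 in adult blastocysts, against 12145, 20409 and 1852 in prepubertal and 17634, 7353 and 6023 in adult 8-16-cell embryos. The stages overlapped through prepubertal 8-16-cell replicate 3, which had 1852. The second probe set of SLC39A6 gave -1.06 and did not pass (adjusted p = 0.693). The 13 genes of family SLC39 had a fitted median of 1.54, with 1 higher, 1 lower and 11 not passing. That median includes signals at background, with 2 of the 13 at background on all 12 arrays. In SLC39A2, SLC39A9, SLC39A12, SLC39A13 and SLC39A14 every array of the dimmer stage was at background. No bounded median was computed for the family. SLC39A11, SLC39A14 and SLC1A4, named after their values were seen, were above background on at least 5 blastocyst arrays and at most 1 earlier array without passing. SLC39A11 differed by 2.98 (adjusted p = 0.0662) and SLC1A4 by 1.50 (adjusted p = 0.513), each with 1 earlier array above background, and SLC39A14 was at least 1.37-fold higher (adjusted p = 0.150).

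Among the 17 carriers of bicarbonate, chloride, protons, sodium and calcium the fitted median was -0.63 and the bounded median 0.0, with SLC4A2 higher and 16 not passing. SLC4A2 exchanges chloride for bicarbonate and lowers an alkaline cell pH. Its signals were 216, 202 and 630 in prepubertal and 487, 1158 and 297 in adult blastocysts, against 24.1, 10.9 and 88.2 in prepubertal and 6.34, 7.82 and 5.87 in adult 8-16-cell embryos. All blastocyst arrays were above background and no earlier array was. SLC4A2 was at least 1.15-fold higher in blastocysts (adjusted p = 0.00484) and at least 2.67-fold within adult embryos (adjusted p = 0.0376), and the adult call was lost without any one of the 6 adult arrays (adjusted p = 0.0632 to 0.179). Over both donor groups no bound above 1 was left without adult 8-16-cell replicate 1 or adult blastocyst replicate 2.

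The calcium exchanger SLC24A1 was not far from the threshold in the other direction (-2.93, SE 1.06, adjusted p = 0.0782), with 5.31 to 8556 in 8-16-cell embryos. Above background were 1 blastocyst array and 3 earlier arrays. Its second probe set gave -0.73 (adjusted p = 0.781). The third, at background on all arrays, gave a fitted -1.44 (adjusted p = 0.269). SLC12A2 brings sodium, potassium and chloride into the cell together. It had 109, 15.8 and 225 in prepubertal and 75.9, 836 and 750 in adult blastocysts, against 405, 1360 and 35.1 in prepubertal and 2834, 4826 and 6089 in adult 8-16-cell embryos. Adult 8-16-cell embryos lay above the other groups. Its difference of -2.57 did not pass (SE 1.05, adjusted p = 0.151), while its second probe set gave -4.37 and did (SE 1.07, adjusted p = 0.00254).

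In the 9 carriers of nucleosides and nucleotide sugars the fitted median was 0.97 and the bounded median 0.02, with SLC29A1 higher and 8 not passing. SLC29A1 lets nucleosides such as adenosine cross the plasma membrane down their gradient. It had 7043, 315 and 5176 in prepubertal and 5263, 7318 and 4188 in adult blastocysts, against 420, 227 and 359 in prepubertal and 115, 324 and 156 in adult 8-16-cell embryos. Of the blastocyst arrays, prepubertal replicate 2 fell among the earlier ones. The difference was 3.77 (SE 1.01, adjusted p = 0.00707), and without prepubertal blastocyst replicate 1 it was 3.37 (adjusted p = 0.0538). Within adult embryos it was 4.79 (SE 1.43, adjusted p = 0.0457), and this call was lost in 11 of 20 alternatives, among them leaving out any one of the 6 adult arrays or prepubertal blastocyst replicate 1 or 3. SLC35A1, which carries CMP-sialic acid into the Golgi, gave 2.84 (adjusted p = 0.0984). SLC28A3, which takes up nucleosides with sodium, did not pass (adjusted p = 0.419), and no fold is given, since no earlier array was above background and the bound was under 1.

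The 10 carriers of lipids, choline and acetyl-CoA had a fitted median of 0.76 and a bounded median of 0.0, with SLC44A2 higher and 9 not passing. In 6 of the 10 the dimmer stage was at background on every array. SLC44A2 is a choline carrier-like protein. It had 1428, 102 and 405 in prepubertal and 323, 1316 and 270 in adult blastocysts, against 148, 18.2 and 31.9 in prepubertal and 14.7, 7.83 and 5.81 in adult 8-16-cell embryos. The lowest blastocyst array lay below the highest earlier one. SLC44A2 was at least 1.23-fold higher (adjusted p = 0.0107), but its second probe set, above background on 1 array of each stage, gave a fitted -0.82 (adjusted p = 0.710), and without prepubertal blastocyst replicate 1 the adjusted p was 0.055. No bound above 1 was left without that array or adult blastocyst replicate 2. SLC27A5, an acyl-CoA synthetase of bile acids in liver, did not pass (adjusted p = 0.425), nor did SLC33A1, which carries acetyl-CoA into the endoplasmic reticulum (adjusted p = 0.486), and their bounds were under 1.

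Of the 6 carriers of sugars and polyols left once the SLC2 family was set aside, SLC5A1 was lower in blastocysts and 5 did not pass, with a fitted median of -0.05 and a bounded one of -0.04. SLC5A1 takes up glucose and galactose with sodium. It had 24.8, 45.4 and 190 in prepubertal and 15.3, 15.4 and 159 in adult blastocysts, against 250, 239 and 14326 in prepubertal and 1425, 332 and 451 in adult 8-16-cell embryos. The stages did not overlap, no blastocyst array was above background, and prepubertal 8-16-cell replicate 3 gave the value far above the rest. SLC5A1 was at least 3.37-fold lower in blastocysts (adjusted p = 0.0174), and without that array at least 1.88-fold lower without passing (adjusted p = 0.126). The other 2 prepubertal 8-16-cell arrays were at background. The call was also lost without adult 8-16-cell replicate 1, adult blastocyst replicate 1 or 2, or prepubertal blastocyst replicate 1 (adjusted p = 0.0526 to 0.0664), and its second probe set did not pass (adjusted p = 0.354). SLC5A10, a carrier of fructose and mannose, gave -0.35 (adjusted p = 0.921), with 2 blastocyst arrays and 1 earlier array above background. SLC5A2, the glucose carrier known from kidney, was at background on all 12 arrays (adjusted p = 0.972).

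No gene passed among the 6 carriers of mono- and dicarboxylates (fitted median -0.24), the 11 of phosphate and sugar phosphates (0.07), the 9 of organic cations, anions and amines (-0.54) and the 8 of vitamins (-0.56), each with a bounded median of 0.0. SLC16A1 moves pyruvate and lactate together with a proton. It had 8329, 10854 and 5499 in prepubertal and 11400, 9401 and 9479 in adult blastocysts, against 165, 4531 and 229 in prepubertal and 2195, 8546 and 14382 in adult 8-16-cell embryos. Only prepubertal 8-16-cell embryos held arrays at background, 2 of 3. The stage difference was 2.20 over both donor groups (adjusted p = 0.103), 3.76 in prepubertal embryos (SE 1.18, adjusted p = 0.0603) and 0.64 in adult embryos (adjusted p = 0.943).

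SLC20A1 takes up phosphate with sodium. It had 5893, 19874 and 5270 in prepubertal and 4404, 6300 and 7432 in adult blastocysts, against 632, 1231 and 1209 in prepubertal and 16787, 4062 and 2169 in adult 8-16-cell embryos. Prepubertal 8-16-cell embryos were again the lowest group, and the stage difference of 1.63 did not pass (adjusted p = 0.301). The related SLC20A2 was at least 1.64-fold lower without passing (adjusted p = 0.243), with 12128 on prepubertal 8-16-cell replicate 1 and 10758 on adult 8-16-cell replicate 3 and at most 441 on the other 10 arrays. SLC13A4, a sulfate carrier of the dicarboxylate family, differed by -1.79 (adjusted p = 0.414), with 2 blastocyst arrays and 4 earlier arrays above background.

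The other genes of smallest p in these 4 substrate groups did not pass, and no fold is given for them. At background on all 12 arrays were SLC13A2, a carrier of citrate and other dicarboxylates (adjusted p = 0.818), SLC22A6, a carrier of organic anions known from kidney (adjusted p = 0.340), SLC22A17, a lipocalin receptor (adjusted p = 0.351), and SLC52A3, a riboflavin carrier (adjusted p = 0.414). SLC22A8, another carrier of organic anions (adjusted p = 0.653), and SLC46A2, of the folate carrier family (adjusted p = 0.694), were above background on 1 prepubertal blastocyst array each. The folate carrier SLC46A1 was so on 1 adult 8-16-cell array (adjusted p = 0.616). SLC17A9, which loads vesicles with nucleotides, was so on 3 blastocyst arrays and no earlier array (adjusted p = 0.620).

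**Figure D3:**
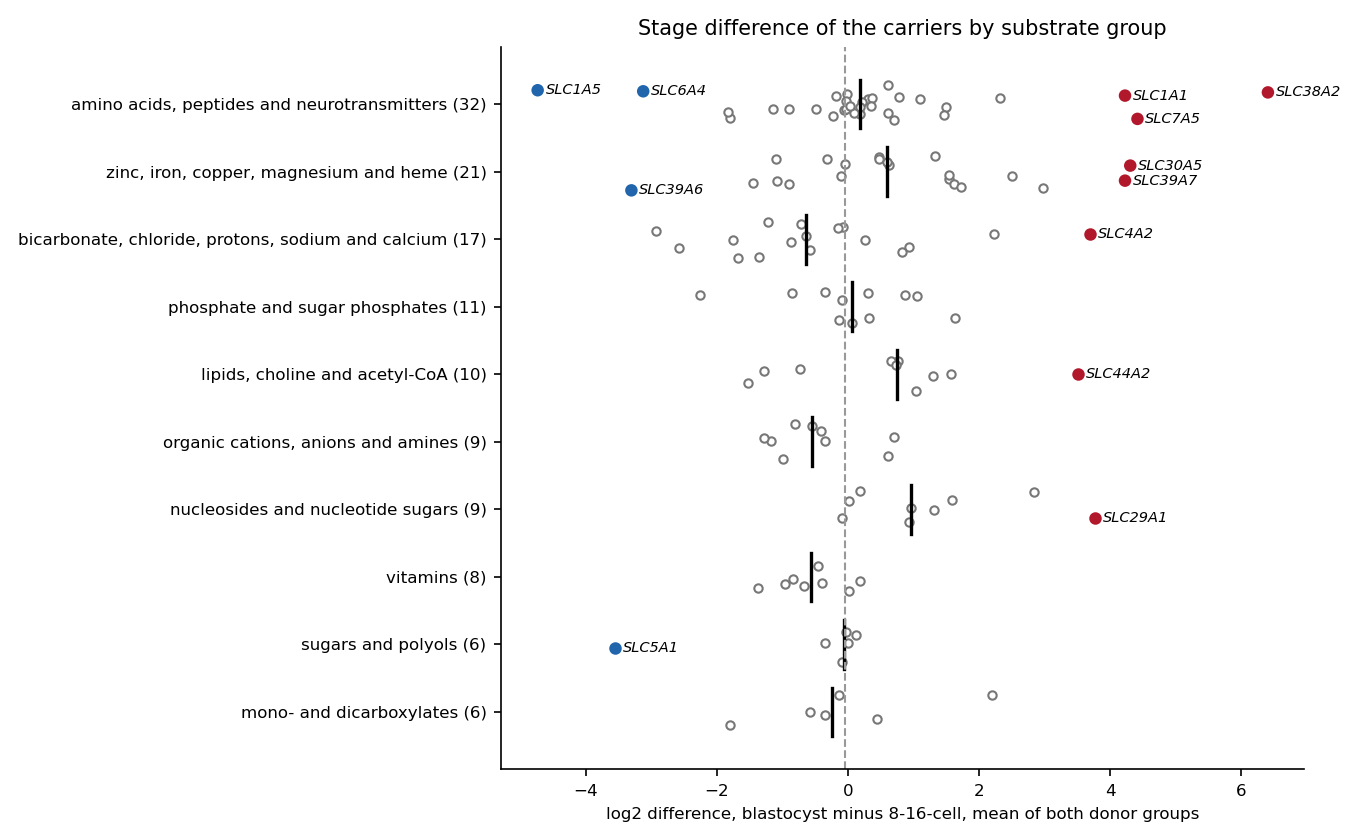
Log2 difference, blastocyst minus 8-16-cell embryo over both donor groups, of 129 carriers by substrate group, with the number of genes in brackets. Red and blue circles are genes called higher and lower in blastocysts, open circles are not called, black bars are group medians and the dashed line is the median of all genes at -0.04. The differences are fitted values that include signals at background. The called genes lie at 3.51 to 6.41 and at -4.73 to -3.12, and fitted group medians lie between -0.63 and 0.97.

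Over the 6 against 6 arrays, 5 carriers (SLC38A2, SLC7A5, SLC30A5, SLC39A7 and SLC4A2) had every blastocyst array above every 8-16-cell array, or 3.82% of the carriers against 3.68% of all genes. The reverse held for SLC1A5, SLC6A4 and SLC5A1, or 2.29% against 1.94%. Above background on at least 5 blastocyst arrays and at most 1 earlier array were 9 carriers, or 6.87% against 5% of genes, and the reverse held for 0 carriers, against 0.655% of genes.

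The stage comparison was also made within each donor group, which have no array in common. In prepubertal embryos 2 carriers passed (1.53%, against 2.34% of probe sets and 3.95% of genes), SLC38A2 being higher and SLC1A5 lower, where 2.57% of genes were higher and 1.39% lower. In adult embryos 7 passed (5.34%, against 2.13% of probe sets and 3.17% of genes): SLC38A2, SLC1A1, SLC1A3, SLC39A7, SLC4A2 and SLC29A1 were higher and SLC1A5 was lower, where 1.84% of genes were higher and 1.33% lower. When single arrays were left out, the prepubertal count lay between 2 and 4, being 4 without prepubertal 8-16-cell replicate 1 or 2, and the adult count between 3 and 10. After quantile normalization the counts were 4 in prepubertal and 4 in adult embryos. The median carrier difference was -0.18 in prepubertal embryos (all genes -0.16) and 0.56 in adult embryos (all genes 0.13). After quantile normalization it was 0.11 in prepubertal embryos (all genes 0.05) and 0.48 in adult embryos (all genes 0.02), so the sign of the prepubertal median turned.

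Both differences had the same sign for 75 of the 131 genes, or 57.3%, against 61.7% of all genes, and their Pearson correlation across the 131 genes was 0.53, as it was across all genes. Genes share their arrays and are not replicates. A fitted difference of 2 or more in both donor groups was seen for 10 carriers that were higher, or 7.63% against 7.42% of genes, and for 5 that were lower, or 3.82% against 4.03% of genes.

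**Figure D4:**
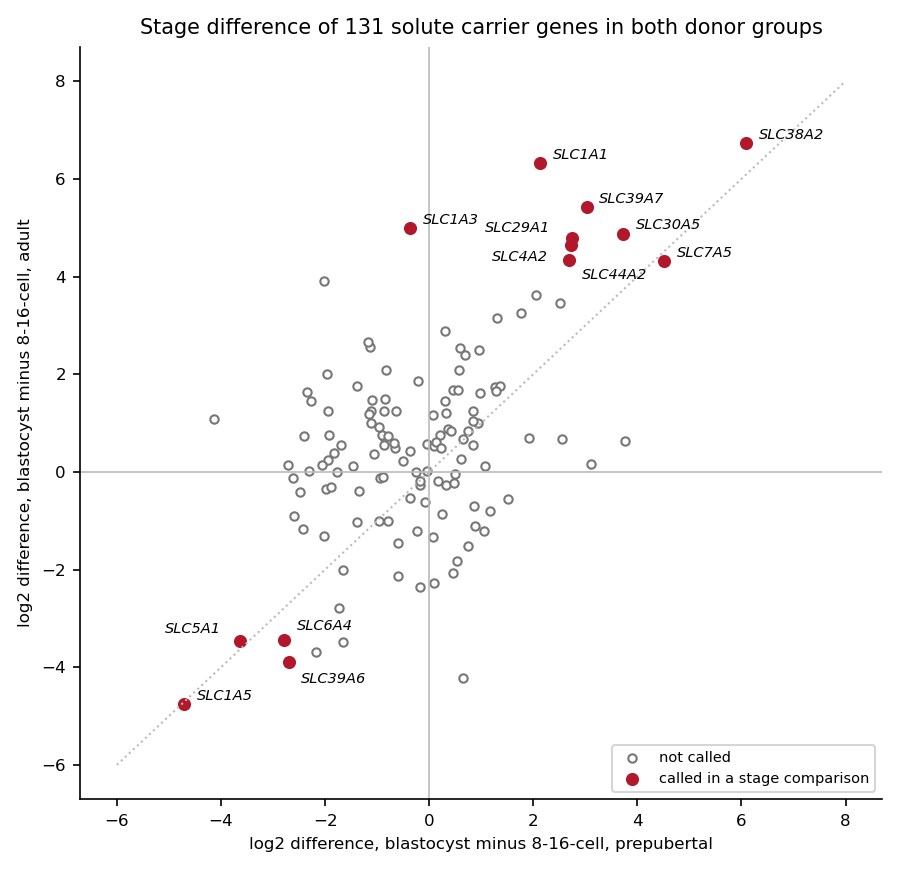
Stage difference of each of the 131 solute carrier genes, blastocyst minus 8-16-cell embryo on the log2 scale, in prepubertal embryos (horizontal) and adult embryos (vertical). Red circles are the 13 genes called in any stage comparison and the dotted line marks equal differences. Values are fitted and include signals at background. SLC1A3 lies off that line at -0.36 and 5.00, while SLC1A5 lies on it at -4.71 and -4.75.

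The donor comparison asked whether embryos of prepubertal heifers differ from those of adult cows at the same stage. At the 8-16-cell stage 0 of the 131 carriers passed limma's test (0%, against 0.0208% of probe sets and 0.0218% of genes), the smallest adjusted p being 0.347. At an unadjusted p of 0.05 there were 14 carriers, 11 higher and 3 lower in prepubertal embryos, or 10.7% against 9.02% of probe sets and 8.75% of genes. The median carrier difference (prepubertal minus adult) was 0.73, against 0.46 over genes and 0.59 over all probe sets, and 96 of 131 were positive, or 73.3% against 62.7% of genes. After quantile normalization the median was 0.14 over the carriers, -0.04 over genes and 0.05 over all probe sets. There 73 carriers were positive, or 55.7% against 48.8% of genes, and 8 were higher and 5 lower at an unadjusted p of 0.05. Backgrounds (356.2 to 1664.2 in prepubertal against 121.8 to 250.6 in adult) and hybridization controls (mean log2 18.59 to 20.18 against 16.99 to 18.16) were higher in prepubertal arrays as well, and their part in the result was not tested.

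The 5 smallest p-values belonged to SLC22A6, SLC52A3, SLC46A2, SLC16A1 and SLC44A4. SLC16A1 was lower by 3.47 in prepubertal embryos (SE 1.18, unadjusted p = 0.00361, adjusted p = 0.381), with the signals given above. Its prepubertal and adult arrays overlapped. SLC22A6 had 60.1, 240 and 535 in prepubertal and 6.33, 7.52 and 8 in adult embryos (adjusted p = 0.347).

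SLC52A3 had 104, 372 and 974 in prepubertal against 28, 9.72 and 6.92 in adult embryos (adjusted p = 0.369). SLC46A2 had 319, 384 and 173 in prepubertal against 7.86, 9.71 and 7.58 in adult embryos (adjusted p = 0.369). In these 3 genes every prepubertal array was above every adult array, but no 8-16-cell array was above background and no fold is given. All 3 prepubertal arrays were above all 3 adult arrays in 14 carriers, or 10.7% against 8.74% of genes, and below them in 4, or 3.05% against 3.53% of genes. SLC44A4, a carrier of thiamine pyrophosphate known from human colon, had 312, 706 and 582 in prepubertal against 59.5, 5.39 and 24.1 in adult embryos, and was at least 2.44-fold higher without passing (adjusted p = 0.434), with prepubertal replicate 2 the only 8-16-cell array above background.

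The 3 carriers lower in prepubertal 8-16-cell embryos at an unadjusted p of 0.05 were SLC16A1, SLC20A1 and SLC12A2. SLC12A2 differed by -3.82 (adjusted p = 0.448) and SLC20A1 by -2.41 (adjusted p = 0.534). In both, every prepubertal array was below every adult array. On prepubertal replicate 3, with its background of 1664.2, both genes were at background.

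**Figure D5:**
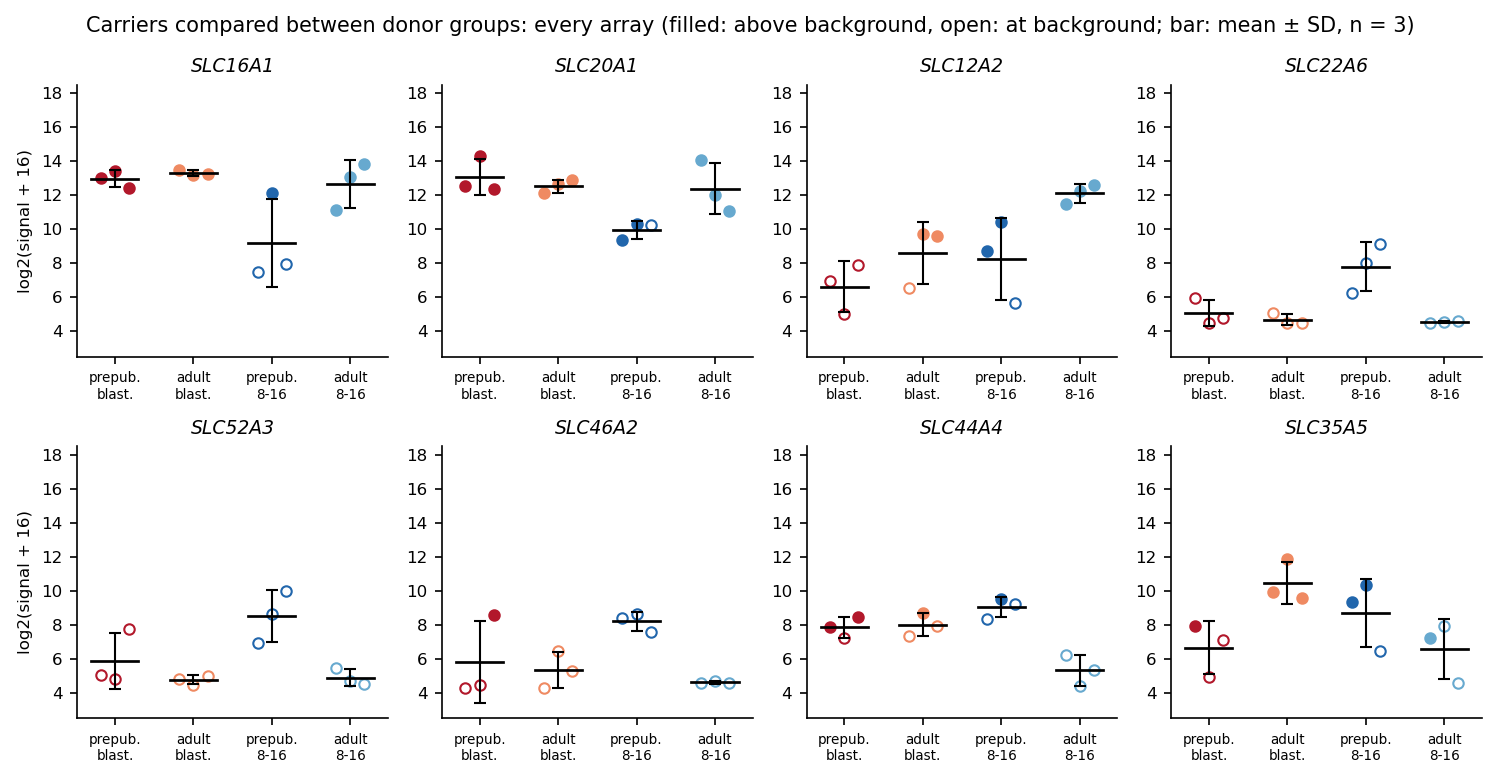
Signal on each array, as log2 of signal plus 16, of 8 carriers with small unadjusted p in a comparison of donor groups, none of which passed after adjustment. Filled circles are above the array's background and open circles are not, and the bar and whiskers are the mean ± SD of 3 arrays. SLC16A1 lies at 165 to 4531 in prepubertal and 2195 to 14382 in adult 8-16-cell embryos.

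In blastocysts 0 carriers passed between donor groups (0% of all probe sets also passed), and at an unadjusted p of 0.05 there were 6, 1 higher and 5 lower in prepubertal blastocysts, or 4.58% against 3.68% of probe sets and 3.9% of genes. The median carrier difference was -0.1, against 0.18 over genes and 0.16 over all probe sets, and 61 of 131 were positive, or 46.6% against 56.2% of genes. All 3 prepubertal blastocyst arrays were above all 3 adult ones in 5 carriers, or 3.82% against 6.39% of genes, and below them in 7, or 5.34% against 3.84% of genes. SLC35A5, a nucleotide sugar carrier-like protein, had the smallest p, with 231, 14.1 and 123 in prepubertal and 963, 3719 and 758 in adult blastocysts. The groups did not overlap, with 1 prepubertal and 3 adult arrays above background. The difference was -3.81 (SE 1.47, adjusted p = 1), and the second probe set of SLC35A5 gave 0.59.

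SLC22A5, which takes up carnitine, had 13.6, 13.8 and 8.07 in prepubertal against 144, 778 and 130 in adult blastocysts. It was at least 1.2-fold lower without passing (adjusted p = 1), with 1 adult array above background. Its second probe set, at background on all 12 arrays, gave a fitted 1.41. SLC1A3 differed by -3.32 with 2 prepubertal and 3 adult arrays above background (adjusted p = 1). SLC38A11, an amino acid carrier-like protein, was at least 2.67-fold lower without passing (adjusted p = 1), with 2 adult arrays above background. SLC39A5, a zinc carrier, was at background on all 12 arrays, and no fold is given (adjusted p = 1).

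The donor effect itself (prepubertal minus adult) was compared between stages, blastocyst minus 8-16-cell. Here 0 carriers and 0 probe sets passed (0%), the smallest adjusted p of a carrier being 0.873. At an unadjusted p of 0.05 there were 10 carriers, 1 higher and 9 lower, or 7.63% against 5.44% of probe sets and 5.69% of genes. The 5 smallest p-values were those of SLC35A5 (-5.93, SE 2.08), SLC27A5 (-5.20), SLC1A3 (-5.36), SLC5A9 (-3.96), a sodium-coupled sugar carrier, and SLC13A4 (4.87), all with an adjusted p of 0.873. These are fitted values that include signals at background, and SLC5A9 was above background on 1 blastocyst array only. The second probe set of SLC13A4 gave -1.51.

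Carriers known from mouse preimplantation embryos formed a list of 20, of which 17 are named on the array. Between stages 4 rose (SLC38A2, SLC7A5, SLC1A1 and SLC4A2), SLC1A5 fell and 12 did not pass, with a median of 0.03. Over all genes 6.35% were called higher and 3.53% lower, and the difference from this short list was not tested. The taurine carrier SLC6A6 differed by -0.18 (adjusted p = 0.962) and the creatine carrier SLC6A8 by -0.49 (adjusted p = 0.891). SLC16A3, which exports lactate, gave -0.35 (adjusted p = 0.923) and the phosphate carrier SLC34A2 0.07 (adjusted p = 0.987). The glycine carrier SLC6A9 and the broad amino acid carrier SLC6A14 were above background on 1 blastocyst array each (adjusted p = 0.994 and 0.995), and the sodium-proton exchanger SLC9A3 on 1 earlier array (adjusted p = 0.837). The proline carrier SLC6A20 (adjusted p = 0.996) and the arginine and lysine carrier SLC7A1 (adjusted p = 0.650) were above background on none. No fold is given for these 5 genes.

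Carriers work with partner proteins, and 16 of 24 listed partner names are measured. Of these 3 rose in blastocysts, 2 fell and 11 did not pass, with a median of -0.36. The shares over all genes were 6.35% higher and 3.53% lower, a difference that was not tested. Both Na,K-ATPase beta subunits that passed belong to the pump that keeps the sodium gradient used by SLC1A5, SLC38A2 and SLC1A1. ATP1B3 had 31540, 62841 and 51464 in prepubertal and 74193, 48507 and 67160 in adult blastocysts, against 3906 to 15572 in 8-16-cell embryos (2.66, SE 0.56, adjusted p = 0.000235). ATP1B1 had 197 to 8644 in blastocysts, against 8479 to 33806 in 8-16-cell embryos (-3.43, SE 0.80, adjusted p = 0.00133). The stages did not overlap for ATP1B3, and for ATP1B1 they overlapped through adult blastocyst replicate 1.

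BSG, which brings SLC16A1 to the membrane, was higher by 3.45 in blastocysts (SE 1.06, adjusted p = 0.0255). It had 209 to 6247 in blastocysts and 8.37 to 356 in 8-16-cell embryos, so the stages overlapped, with 1 earlier array above background. Within adult (adjusted p = 0.168) and prepubertal embryos (adjusted p = 0.374) it did not pass. ARL6IP5, known in rodents to bind SLC1A1, was at least 1.93-fold higher (adjusted p = 0.0298). CA2, a carbonic anhydrase that supplies bicarbonate, was at least 2.16-fold lower (adjusted p = 0.00222), with all 6 blastocyst arrays at background. No partner passed between donor groups.

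Of 28 listed genes of amino acid sensing, 23 are measured, and 1 rose, 1 fell and 21 did not pass between stages, with a median of -0.05. Among all genes 6.35% rose and 3.53% fell. EIF2S1, the initiation factor subunit that is phosphorylated when amino acids are short, was higher in blastocysts by 3.70 (SE 0.96, adjusted p = 0.00501). ATF3, a stress-induced transcription factor, fell in blastocysts (-2.85, SE 0.90, adjusted p = 0.0324).

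Markers of other cells were counted beside these results. Of 12 cumulus and granulosa markers 1 was lower in blastocysts (STAR, -3.57, SE 1.04, adjusted p = 0.0168) and 11 did not pass, and AMH, FSHR, INHA and PTX3 were at background on all arrays. Their signals summed to 1759 to 2924 in prepubertal and 2782 to 4426 in adult blastocysts, against 3682 to 15687 in prepubertal and 4442 to 17507 in adult 8-16-cell embryos. The highest earlier sums came mostly from STAR (up to 11344) and VCAN (up to 16295). HAS2 went the other way without passing (2.98, adjusted p = 0.0643), above background on 6 blastocyst and 2 earlier arrays. The median difference of the 12 was -0.28. Of 5 oocyte and cleavage-stage markers 3 fell in blastocysts (GDF9, BMP15 and KPNA7). NLRP5 (adjusted p = 0.769) and ZP3 (adjusted p = 0.797) did not pass, each being above background on 1 blastocyst array only. None of 6 blood and 6 sperm markers passed between stages. The part of these cells and of stored maternal RNA in the stage differences of SLC1A5, SLC39A6, SLC6A4 and SLC5A1 was not tested.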

How the data were processed

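RNA of 12 pools, 3 per group, was amplified with a whole-transcript kit and hybridized to an Affymetrix bovine array, per the labels. The deposited values are a linear signal intensity per probe set, made by the authors with MAS5, per the submitters' processing notes, which do not state its version or settings. The trimmed mean (2% at each end) was 500.19 to 500.31 on every array. Columns of other samples numbered 0.

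From these, log2(signal + 16) of 24016 probe sets (112 controls left out) was fitted with limma 3.58.1 in R 4.3.3 (4 group means, lmFit, eBayes with trend), two-sided, with Benjamini-Hochberg adjustment over all of them and a call at 0.05. With 8 residual and 195.7 prior degrees of freedom, a probe set's own spread weighs little in its p against that of others of similar signal. On simulated data for the stage comparison over both donor groups, on 24016 probe sets, 4%, 46%, 92% and 98% of log2 changes of 2, 4, 6 and 8 were called. Values were drawn from normal distributions around each probe set's mean, and 50 probe sets were changed at each size. In the data 1538 probe sets were called. The adjustment depends on how many probe sets change, so these shares need not hold for the data. The number of arrays limits the precision.

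Platform annotation gave 1 gene for 13292 probe sets, several for 86 and none for 10638. All 131 symbols were found by gene identifier in RefSeq, and 0 changed. The background is too high if the Bacillus subtilis sequences were added to the samples. Where no array of the dim side exceeded background, a gene's fold is given as "at least": the brighter mean over the dimmer, with dim signals raised to their arrays' backgrounds and the fit's adjusted p beside it. No fold is given where no array of either side did or where this bound was under 1. Other differences, medians and differences of donor effects are fitted values that include signals at background.

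Genes named were all called carriers, the 3 of smallest p in substrate groups with fewer than 3 calls, the 5 of smallest p in each donor comparison and in the difference of donor effects, and the listed embryo carriers. Substrate groups were assigned by family unless a gene was placed singly. A member's own substrate can thus differ from its group's name, as with SLC44A4 among lipids and choline and SLC17A9 among phosphates. Family SLC66 was placed among amino acid carriers after the annotation was read. Carriers, lists and rules were chosen with earlier results of these data known. Replicate numbers were not used to pair the samples in the main fit. Alternatives were quantile normalization, pseudocounts of 1 and 64, a filter on low signal, a floor at the highest background, no trend, array weights, a replicate block, another probe set, and each array left out.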

Additional observations from a re-analysis of the deposited data

How the results depend on the processing

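Of the 12 carriers called between stages over both donor groups, 3 were called with signals raised to the highest background, which by its construction removes differences below that level, and 8 to 13 when 1 array was left out, 8 being without prepubertal blastocyst replicate 1. The 7 adult calls became 4 after quantile normalization, 1 with the raised background and 11 with array weights. With 1 array left out they were 3 to 10: 4 without adult 8-16-cell replicate 1 or 3, 3 without adult blastocyst replicate 1, 2 or 3, and 10 without prepubertal 8-16-cell replicate 3. The 2 prepubertal calls became 4 after quantile normalization, 1 with the raised background and 4 without the variance trend, and 2 to 4 with 1 array left out, 4 being without prepubertal 8-16-cell replicate 1 or 2. No donor comparison gave a call in any alternative (0 to 0 with 1 array left out). The causes of changes under quantile normalization, array weights and no trend were not tested. Called probe sets in all were 377, 99 and 154 with the raised background, against 1538, 512 and 563, and 889 in adult embryos with array weights.

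Calls of SLC1A5 in all 3 stage comparisons, and of SLC38A2 and SLC7A5 over both donor groups, passed in every alternative. The second probe set turned the sign of SLC44A2 between stages (-0.82), of SLC13A4 in the difference of donor effects (-1.51), and of SLC22A5 (1.41) and SLC35A5 (0.59) between donor groups in blastocysts. The second probe set of SLC22A5 was at background on all 12 arrays. Within adult embryos a pseudocount of 64 ended the calls of SLC39A7 (adjusted p = 0.0554) and SLC4A2 (0.0635), a pseudocount of 1 that of SLC29A1 (0.0532), and quantile normalization those of SLC4A2 (0.0548) and SLC29A1 (0.0967). Of 36 genes with a second probe set, 19 kept the sign of the stage difference. Some of these second probe sets, such as those of SLC10A1, SLC16A3 and SLC1A4, were at background on all arrays, where a sign says little. No such share over all genes is given. With the replicate number as a block, 12, 8 and 2 carriers were called. Deviations of same-numbered arrays from their group means correlated at -0.03 to 0.05 over all probe sets, many of them at background. This cannot show whether such arrays had animals, semen or a culture day in common. Median differences of all probe sets moved to -0.1, -0.03 and -0.12 after quantile normalization, against -0.17, 0.08 and -0.37, and between donor groups to 0.05 at the 8-16-cell stage, against 0.59. The bounds without single arrays and the median with genes at their bounds were computed after the data were seen.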
